A study of Mus musculus with 3 samples.

Results

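The semaphorins, their plexin receptors and the neuropilin co-receptors were examined in 3 RNA libraries of adipose stem and progenitor cells from epididymal fat. The members were taken by gene symbol (Sema3 to Sema7, Plxna to Plxnd, Nrp1 and Nrp2), which gave 31 genes of the 27179 in the table: 20 semaphorins, 9 plexins and 2 neuropilins. The cells came from naive, wild-type male mice of the strain given as C57B6, aged 12 weeks, and all 3 libraries belong to this 1 group, with no treatment, other genotype or other cell type beside it. They were sorted as live, Ter119-, CD45- and CD31- (markers of red cell precursors, leukocytes and endothelium), and positive for CD140a, Sca1 and podoplanin. The study used 3 mice. Whether a library stands for a mouse is not stated, and the spread over libraries may therefore be partly technical.

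Semaphorins are guidance proteins, first known for repelling growing axons and now also known for steering blood vessels and immune cells. Class 3 members are secreted, classes 4 to 6 span the membrane and class 7 is held at the surface by a lipid anchor. Plexins carry the signal into the cell through a domain that switches off small GTPases of the Ras and Rap family. Most class 3 ligands reach A-type plexins by way of a neuropilin, whereas Sema3e binds Plxnd1 directly. In human fat, SEMA3C has been described as a secreted product of adipocytes.

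Library totals ran from 25060096 to 32813373 counts. Levels are given in CPM, counts scaled to library size with TMM factors. A gene at 0 counts could lie as high as 3 counts, or 0.0945 to 0.119 CPM, and such limits cover counting error only, as amplified reads are not independent molecules. Of the genes for the proteins sorted for, Pdgfra (CD140a) stood at 1484 ± 14.5 CPM, Ly6a (Sca1) at 3254 ± 441 and Pdpn (podoplanin) at 119 ± 31.9 (SD, n = 3). For the proteins sorted against, Pecam1 (CD31) gave 1, 1 and 2 counts. Ptprc (CD45) gave 5.42, 15.8 and 7.68 CPM, at or above 1 CPM in every library, although the sort was against CD45. All 6 stromal markers reached 1 CPM in every library. None of the 6 endothelial, 6 macrophage, 6 lymphocyte, 6 mural or 6 mesothelial markers did, and 2 of 6 Schwann cell (S100b and Mbp) and 2 of 6 neuronal markers (Tubb3 and Stmn2) did. The mural markers were not near 0, however. They summed to 5.89, 7.29 and 9.11 CPM, against 0.158, 0.198 and 0.393 for the endothelial markers. In pooled cells, fewer cells with a transcript and less of it per cell cannot be told apart.

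Of the 31 genes, 16 were detected, meaning 1 CPM or more in every library, beside 35.0% of all genes in the table and 43.7% of protein-coding genes. The detected genes were 10 of 20 semaphorins, 4 of 9 plexins and both neuropilins. Another 4 reached 1 CPM in only some libraries (Sema4a, Sema4d, Plxna2 and Plxnc1), and 11 stayed below it in every library. Among those 11, Sema3f, Sema3g, Sema5b, Sema7a and Plxnb3 had 0 counts throughout, which allows up to 0.0353 CPM at 3 counts over the group. The median of mean log2(CPM + 0.5) was 1.67 over the 31 genes, against -0.73 over all genes and 0.60 over protein-coding genes. Sema3c and Nrp1 together made up 67.6% of the summed CPM of the 31 genes.

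**Figure D1:**
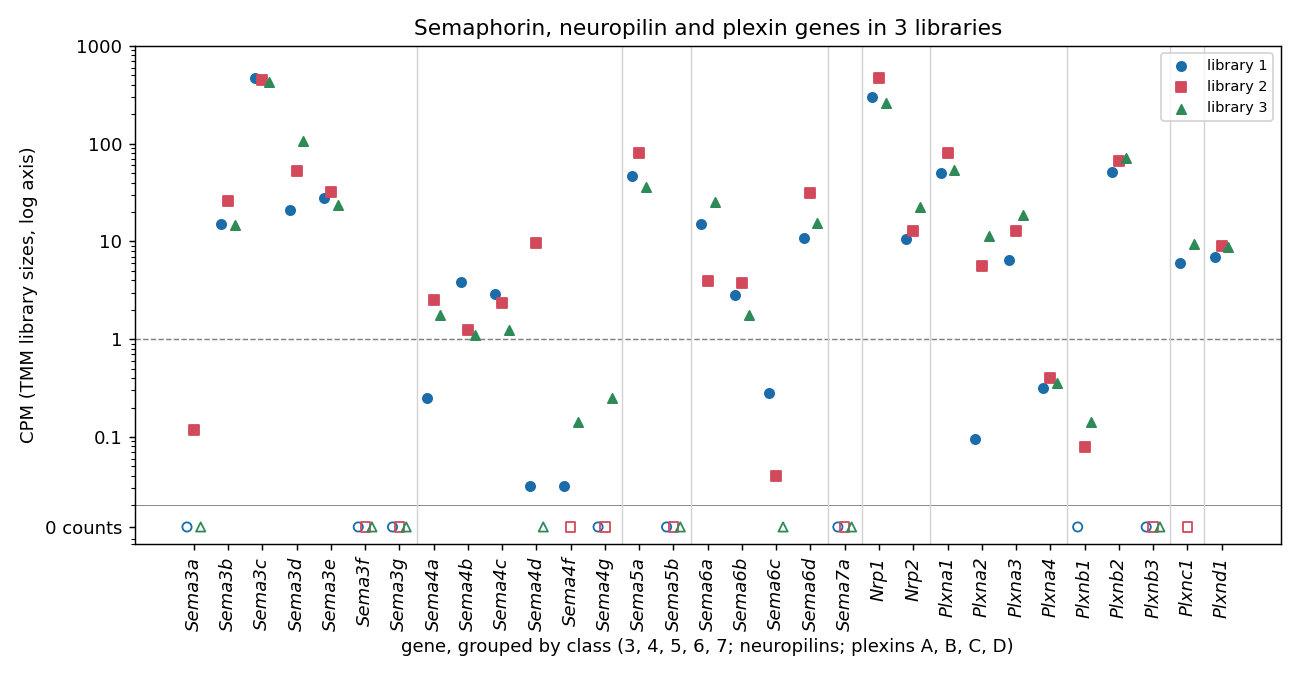
CPM of each of the 31 genes in each library on a log axis, with the genes grouped by class. Points are single libraries, open symbols on the lowest line are 0 counts, and the dashed line is the detection threshold of 1 CPM. Sema3c and Nrp1 lie above 100 CPM in all 3 libraries, and 5 genes have only open symbols.

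Sequences before the start are shown for the 4 class 3 genes that lie near each other on chromosome 5, which span the highest and nearly the lowest levels of the class, and for Nrp1, the most abundant receptor gene. Each is the 250 bases before a RefSeq start on GRCm38.p6, plus strand, written 5′ to 3′ with every CG pair in capitals.
Sema3c, chr5:17574566-17574815: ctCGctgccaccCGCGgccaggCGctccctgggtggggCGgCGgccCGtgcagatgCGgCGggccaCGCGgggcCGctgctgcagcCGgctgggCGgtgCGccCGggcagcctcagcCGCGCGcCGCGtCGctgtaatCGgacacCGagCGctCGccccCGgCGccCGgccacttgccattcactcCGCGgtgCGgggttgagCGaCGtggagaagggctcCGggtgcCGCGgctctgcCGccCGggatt
Sema3e, chr5:14025026-14025275: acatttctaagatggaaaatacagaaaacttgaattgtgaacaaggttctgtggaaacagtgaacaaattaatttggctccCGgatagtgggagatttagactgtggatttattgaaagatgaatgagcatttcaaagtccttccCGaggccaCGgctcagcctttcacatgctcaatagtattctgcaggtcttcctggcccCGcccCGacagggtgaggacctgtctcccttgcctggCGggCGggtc
Sema3d, chr5:12382916-12383165: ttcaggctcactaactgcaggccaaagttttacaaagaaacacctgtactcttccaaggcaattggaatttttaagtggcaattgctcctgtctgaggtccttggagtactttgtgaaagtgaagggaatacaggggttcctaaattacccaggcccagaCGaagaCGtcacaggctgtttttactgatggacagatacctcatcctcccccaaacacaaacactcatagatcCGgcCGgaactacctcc
Sema3a, chr5:13396534-13396783: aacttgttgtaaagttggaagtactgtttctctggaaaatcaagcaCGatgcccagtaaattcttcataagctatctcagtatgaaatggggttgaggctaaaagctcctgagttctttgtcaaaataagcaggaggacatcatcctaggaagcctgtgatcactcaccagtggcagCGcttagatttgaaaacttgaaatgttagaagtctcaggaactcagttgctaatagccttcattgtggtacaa
Nrp1, chr8:128358823-128359072: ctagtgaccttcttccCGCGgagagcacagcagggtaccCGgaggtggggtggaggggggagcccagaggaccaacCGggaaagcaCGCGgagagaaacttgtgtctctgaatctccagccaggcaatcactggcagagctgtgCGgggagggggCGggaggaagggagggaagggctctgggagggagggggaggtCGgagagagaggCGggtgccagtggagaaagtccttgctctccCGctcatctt
The Sema3c window holds 39 CG pairs, the highest number among the 37 windows of 26 members that RefSeq gives, and 78.4% G or C. The Sema3a window holds 2, that of Sema3d 4, that of Sema3e 7 and that of Nrp1 11. The windows are not alike in place. Those of Sema3c, Sema3d and Sema3e end at or within a few bases of the gene's first base. The Sema3a window lies well inside its gene, which spans 13124822 to 13603485. That of Nrp1 lies shortly past its gene's first base, 128358591. RefSeq may give other starts for these genes, and the reads were not assigned to starts.

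Secreted class 3 ligands made up most of the semaphorin signal. Because longer transcripts give more reads, levels are compared between genes as CPM per kilobase of merged exon. On that scale class 3 held 91.0%, 87.4% and 91.2% of the summed semaphorin level in libraries 1, 2 and 3, class 6 held 4.94% ± 0.66, class 5 held 3.38% ± 1.36 and class 4 held 1.8% ± 0.89 (SD, n = 3). Class 7, whose sole member is Sema7a, had 0 counts. Of the 7 class 3 genes, 4 were detected.

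Sema3c, a ligand known to act through neuropilins and Plxnd1 in heart outflow tract development, had the highest mean of the 31 genes in CPM per kilobase of merged exon, though not with the longest transcript as length, where Nrp1 was higher. It had 473, 447 and 430 CPM, or 66.3, 62.6 and 60.2 CPM per kilobase, a coefficient of variation of 4.84%. Its 3 values lay close together, and alone it held 80.6%, 70.5% and 70.1% of the summed semaphorin level per kilobase. By mean CPM per kilobase it stood above 96.2% of the 20768 protein-coding genes with a length.

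Sema3d, a ligand known for guiding endothelial cells, had 21.0, 52.2 and 107 CPM. Library 3 was 5.12-fold above library 1, with library 2 between them and a mean of 60.2 CPM that was 36.6 without library 3, and this was the widest range among members with a mean above 20 CPM. In edgeR's quasi-likelihood test, library 1 differed from libraries 2 and 3 by a log2 fold change of -1.93 (unadjusted p = 0.022, adjusted p = 0.99) and library 3 by 1.55 (unadjusted p = 0.033, adjusted p = 0.89), so neither passed. Sema3e, the Plxnd1 ligand, had 28.1, 32.2 and 23.7 CPM, and Sema3b, which binds neuropilins, had 15.0, 26 and 14.6 CPM. The order of Sema3b and Sema3e per kilobase depended on the length used: Sema3b minus Sema3e was 0.28 ± 0.27 in log2(CPM per kilobase + 0.5) with merged exons and -0.56 ± 0.28 with coding length.

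Sema3a, the founding axon repellent of the class, had 0, 3 and 0 counts, and Sema3f and Sema3g, whose main co-receptor is Nrp2, had none. On chromosome 5 the order is Sema3d, Sema3a, Sema3e and Sema3c, with no other gene of the table in the 0.536 Mb between Sema3d and Sema3a, 2 in the 0.422 Mb between Sema3a and Sema3e and 18 in the 3.32 Mb before Sema3c. The 3 flanking genes were detected and Sema3a was not. Per kilobase, the 38343 counts of Sema3c were 24824-fold the 3 counts of Sema3a (95% exact counting interval 8494 to 120382, for counting error alone). A like pair lies on chromosome 9, where Sema3b and Sema3f are 0.0723 Mb apart: Sema3b had 475, 656 and 409 counts and Sema3f 0.

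**Figure D2:**
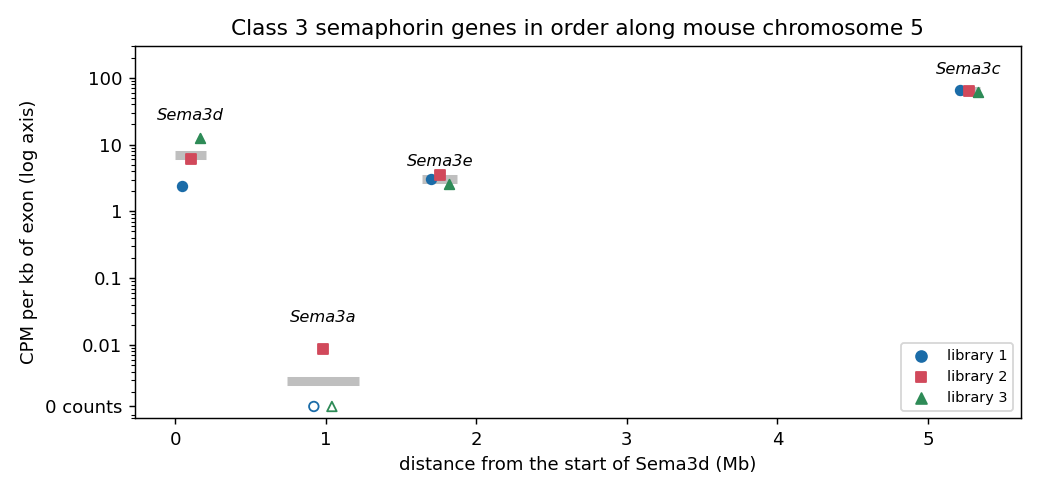
CPM per kilobase of exon on a log axis for the 4 class 3 genes of chromosome 5, placed by distance in Mb from the start of Sema3d. Grey bars mark the extent of each gene at its mean level, coloured points are libraries and open symbols 0 counts. Sema3a, with 3 counts in all, lies far below its neighbours, and Sema3c has the highest values.

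The membrane-bound classes had lower summed levels than class 3. Sema5a, a guidance protein with thrombospondin repeats, had 46.8, 80.7 and 35.6 CPM, while its paralog Sema5b had 0 counts. Per kilobase of merged exon Sema5a came to 2.91 ± 1.26, not separated from Sema3e (Sema3e minus Sema5a 0.10 ± 0.33 on the log2 scale). That difference was -0.21 with the longest transcript, -0.40 with coding length and -0.87 in CPM not divided by length. With coding length and in CPM, Sema5a was higher in every library. Plxnb3, the plexin described as a Sema5a receptor, had 0 counts.

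Of the class 6 ligands, which signal through A-type plexins, 3 of 4 were detected. Sema6d had 10.8, 31.3 and 15.6 CPM, Sema6a had 15.2, 3.96 and 25.4 CPM, and Sema6b had 2.84, 3.76 and 1.75 CPM. Library 2 was the highest for Sema6d and Sema6b and the lowest for Sema6a, whose highest library was 6.42-fold its lowest. Sema6c had 9, 1 and 0 counts. Without library 3 the mean of Sema6a fell from 14.9 to 9.59 CPM.

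Of the class 4 ligands, many of which act on immune cells, 2 of 6 were detected, and both were low. Sema4c, a Plxnb2 ligand, had 2.87, 2.34 and 1.25 CPM, and Sema4b had 3.81, 1.23 and 1.11 CPM, a mean of 2.05 that was 1.17 without library 1. Sema4a, an immune semaphorin, had 0.252, 2.50 and 1.75 CPM. Sema4f and Sema4g had 5 and 7 counts in all.

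Sema4d, the leukocyte semaphorin CD100 and the ligand of Plxnb1, had 1, 243 and 0 counts, so 243 of its 244 counts were in library 2. Library 2 was 306-fold above library 1 (95% exact counting interval 54.4 to 12124, counting error only) and at least 89.9-fold above library 3, taken against 3 counts in that library. The leukocyte gene Ptprc was also highest in library 2. The summed level of the 6 macrophage markers was 0.945, 2.22 and 0.179 CPM. In library 2 that sum was nearly all Csf1r (55 counts), with Adgre1, Lyz2, C1qa and C1qb at 0 and Tyrobp at 1 count, and Lyz2 had its 25 counts in library 1. The sum of the 6 lymphocyte markers was 0.0945, 0.317 and 0.0357 CPM, nearly all Cd2 (7 counts) in library 2, with Lck and Ms4a1 at 0 throughout. Their part in the Sema4d value was not tested. The difference did not pass edgeR's quasi-likelihood test (adjusted p = 0.91), nor DESeq2's Wald test (adjusted p = 0.055).

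Both neuropilins were detected, with Nrp1 far above Nrp2. Nrp1, the co-receptor of many class 3 ligands and of VEGF, had 298, 468 and 261 CPM, and Nrp2, which prefers Sema3f and VEGF-C, had 10.6, 12.9 and 22.3 CPM. Library 2 was the highest for Nrp1 and library 3 for Nrp2. Nrp1 held 97.2%, 97.8% and 93.4% of the summed neuropilin level per kilobase. The difference Nrp1 minus Nrp2 was 4.31 ± 0.72 in log2(CPM per kilobase + 0.5) and positive in all 3. By a two-sided sign-flip test, an exact permutation, p was 0.25, the lowest value that n = 3 can give (0.25 after Benjamini-Hochberg adjustment over 3 gene pairs). An 80-base stretch of Nrp1 exons overlaps the microRNA gene Mir1903, 0.818% of their length.

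Among the plexins, A and B types shared most of the signal, at 46.6% ± 5.07 and 43.8% ± 2.01 of the summed plexin level per kilobase, followed by Plxnd1 at 6.11% ± 0.35 and Plxnc1 at 3.43% ± 2.99 (SD, n = 3). Each type was carried mainly by 1 gene: Plxna1 for A and Plxnb2 for B. Plxna1, a receptor that pairs with neuropilins and also binds Sema6d, had 50.4, 80.5 and 54.4 CPM. Plxnb2, a receptor of class 4 ligands, had 51.3, 66.2 and 71.4 CPM. Of Plxna1's exon length, 10.7% overlaps the gene Gm26811, and whether counting used strand is not given in the sources used here.

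Plxna3, which pairs with neuropilins, had 6.46, 12.7 and 18.7 CPM. Plxna2, a receptor of Sema6a, had 3, 141 and 315 counts, and library 1 was the low one. Library 2 was 59.1-fold above library 1 (95% exact counting interval 19.8 to 290.1), and without library 3 the mean fell from 5.64 to 2.84 CPM. Plxna4, the other known Sema6a receptor, had 10 counts in each library, below the detection threshold.

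Plxnb1, the Sema4d receptor, had 0, 2 and 4 counts. Plxnb2 minus Plxnb1 was 4.08 ± 0.21 in log2(CPM per kilobase + 0.5), positive in 3 of 3 libraries. Plxnb1 averaged 0.0077 CPM per kilobase, far below the 0.5 added, so the size of this difference is set largely by that 0.5. With 0.1 added it was 6.25 and with 1 added 3.17, so its size is not comparable with that of Nrp1 minus Nrp2. Plxnd1 minus Plxna1 was -2.14 ± 0.26 on the scale with 0.5 added, negative in 3 of 3. By the same exact permutation p was 0.25 for each pair, and 0.25 adjusted over the 3 pairs. Plxnd1, the receptor of Sema3e, had 6.99, 9.08 and 8.79 CPM, close in all libraries.

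Plxnc1, the Sema7a receptor, had 190, 0 and 262 counts. Libraries 1 and 3 were at least 50.3-fold and 78.7-fold above library 2, taken against 3 counts there. Library 2, the highest for Sema4d and Ptprc, was thus the lowest for Plxnc1. In DESeq2's Wald test Plxnc1 was lower in library 2 (adjusted p = 0.023), as were 1.2% of all genes tested, but it did not pass edgeR's quasi-likelihood test (unadjusted p = 0.013, adjusted p = 0.91). Itgb1, an integrin gene whose protein also binds Sema7a, stood at 484, 444 and 480 CPM. The integrin gene Itga1, also listed as a semaphorin partner, had 51, 130 and 0 counts and was not detected. Itga1 was named after its values were seen.

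**Figure D3:**
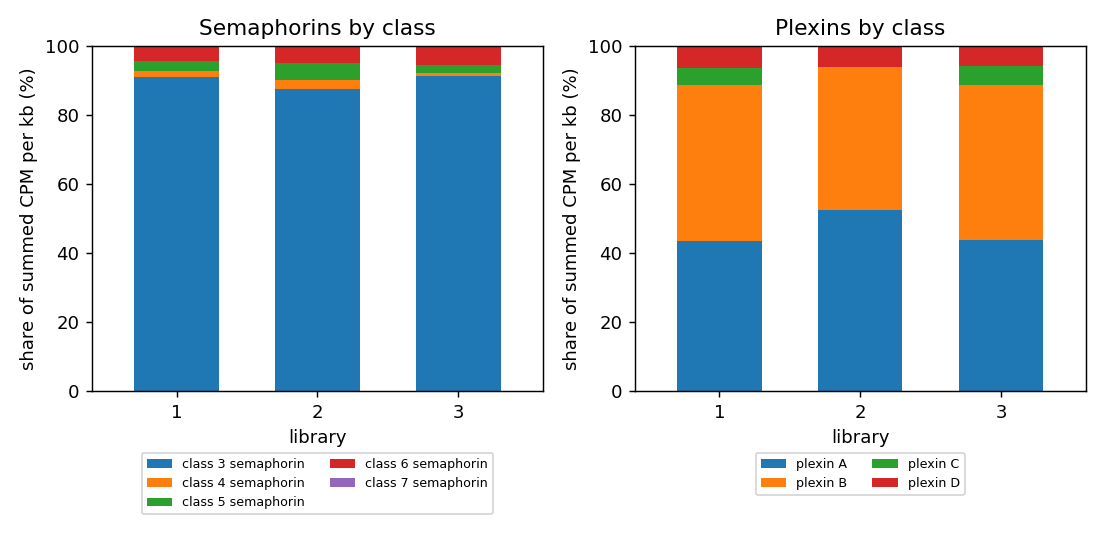
Share of the summed CPM per kilobase held by each class of semaphorins (left) and plexins (right), in percent, for each library. Class 3 fills 87.4% to 91.2% of the semaphorin bars, and A and B types fill most of the plexin bars. Plexin C is missing from library 2.

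Ordered by mean CPM per kilobase, the leading genes were Sema3c (63.0 ± 3.05), Nrp1 (35.0 ± 11.2), Plxnb2 (8.16 ± 1.35), Sema3d (7 ± 5.09), Plxna1 (6.82 ± 1.81), Sema3b (3.88 ± 1.36), Sema3e (3.01 ± 0.46) and Sema5a. On the log2(CPM per kilobase + 0.5) scale Nrp1 exceeded Plxnb2 by 2.00 ± 0.47, in 3 of 3 libraries. Sema3c minus Nrp1 was 0.88 ± 0.43 with merged exons, positive in 3 of 3, but -0.15 ± 0.44 with the longest transcript, where Nrp1 averaged 93.9 and Sema3c 82.0 CPM per kilobase, so their order rests on the length used. In CPM not divided by length Nrp1 was above Sema3c in library 2. Plxnb2, Sema3d and Plxna1 could not be ordered, with neighbour differences of 0.44 ± 0.85 and -0.19 ± 1.06. Of the 25 neighbouring pairs among genes with counts, 7 kept 1 sign in every library with a mean difference above its SD and 18 did not. Of those 7, 3 also did so in CPM not divided by length and with the longest transcript and coding lengths: Nrp1 above Plxnb2, Plxna1 above Sema3b and Sema5a above Sema6d. The summed neuropilins stood at 4.89, 4.50 and 3.16 times the summed A-type plexins per kilobase. That ratio rests on the exon lengths used: it averaged 4.18 ± 0.91 with merged exons and 10.7 with the longest transcript, which for Nrp1 is 3645 bases against 9785 bases of merged exon.

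The libraries were also compared with each other across all genes. Of 13289 genes with 10 or more counts in a library, 21 were members. Each library in turn was compared with the remaining pair by edgeR's quasi-likelihood test, on the assumption that a lone library has the same variance as the rest. In this test 0 members and 0% of all genes passed an adjusted p of 0.05 in each of the 3 comparisons, so nothing about the members is read from it. At an unadjusted p under 0.05 there were 511, 659 and 674 genes for libraries 1, 2 and 3, among them 2 members (Plxna2 and Sema3d), 2 (Plxnc1 and Sema4d) and 1 (Sema3d). DESeq2's Wald test called 126, 199 and 197 genes, with Plxnc1 in library 2 the only member.

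The range between the highest and lowest library had a median of 1.04 in log2(CPM + 0.5) over the 21 members tested. Over all 13289 genes the median was 1.18. Among the members the range ran from 0.14 for Sema3c and Plxna4 to 4.34 for Sema4d. Plxna4, at 0.315 to 0.396 CPM, lies below the 0.5 added, which compresses its range. Its highest library was 1.26-fold its lowest, against 1.10-fold for Sema3c. Sema4d, Plxna2 and Plxnc1 were the 3 of 17 members with 100 or more counts in a library that had 3 or fewer in another, a pattern looked for after their values were seen. Among all genes with 100 or more counts in a library it was met by 10.7% (1201 of 11266).

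**Figure D4:**
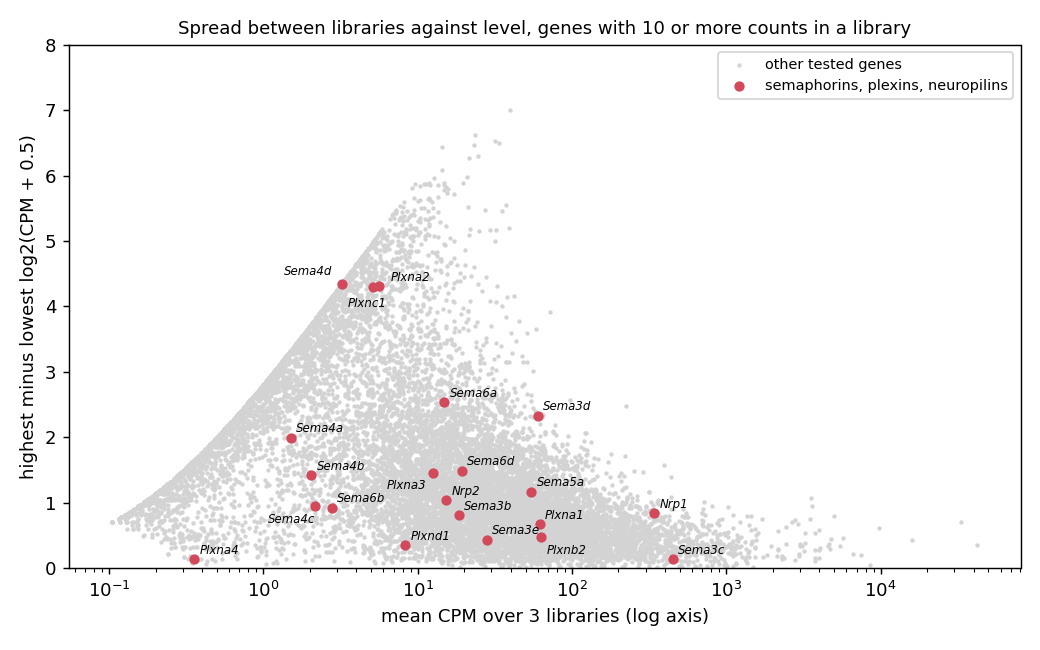
Highest minus lowest log2(CPM + 0.5) over the 3 libraries against mean CPM on a log axis, for the 21 members with 10 or more counts in a library (red, named) and the other genes tested (grey). Sema3c, with the highest mean, has, with Plxna4, the smallest range among the named genes, and Sema4d, Plxna2 and Plxnc1 have the widest. The range of Plxna4 is compressed by the 0.5 added, as its CPM lies below 0.5 in every library.

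Genes that carry plexin signals inside the cell were mostly detected. Their values and those of the other lists are CPM not divided by length, so no order between genes is read from them. Of 32 listed transducers 23 were detected, beside 43.7% of protein-coding genes. Their median log2(CPM + 0.5) was 4.57, against 0.60 over protein-coding genes. Dpysl2, which encodes the collapsin response mediator CRMP2, had 478, 551 and 660 CPM, the GTPase gene Rac1 498 ± 37.1, the kinase gene Fyn 211 ± 47.1 and the GTPase gene Rap1a 178 ± 15.0. Dpysl5 and Crmp1, which encode mediators of the same family known from neurons, had 0 counts. Of the rest of that family, Dpysl3 was detected, at 50.6, 50.2 and 49.9 CPM, and Dpysl4 had 3, 0 and 2 counts. Dpysl3 and Dpysl4 were named after their values were seen.

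Other partners and ligands of these receptors were present in part. Of 16 listed partners of semaphorins, 8 were detected, near the share of 43.7% over protein-coding genes. Among them were Itgb1 and the receptor kinase genes Mst1r at 21.4 ± 4.71, Erbb2 at 15.9 ± 9.78 and Met at 15.4 ± 3.78 CPM. These kinases are known to associate with B-type plexins. Cd72, Timd2 and Trem2, receptor genes known from immune cells, had 0 counts. Of 14 genes for other neuropilin ligands and their receptors, 8 were detected, beside the same 43.7%. The galectin gene Lgals1 stood at 3081 ± 387 CPM, and the vessel growth factor genes Vegfa at 127 ± 46.2, Vegfc at 124 ± 21.3 and Vegfd at 68.6 ± 7.58. Kdr, the VEGF receptor for which Nrp1 is a co-receptor in endothelium, had 0.0630, 0 and 0.25 CPM. Of the other VEGF receptor genes listed, Flt1 was detected, at 11.3, 2.42 and 2.14 CPM. Flt4 had 3, 84 and 2 counts and was not detected. These receptor genes were named after their values were seen.

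Promoter letters differed widely among the members. The 37 windows of 250 bases held 0 to 39 CG pairs, with a median of 13.0, against 10 over 21263 windows of protein-coding genes. The median was 15.5 over the 18 windows of detected members and 6.0 over the 19 windows of the others. Genes with several starts count more than once, which weighs on these medians. Among the others, the Sema4a windows held 6, 13, 3 and 2 pairs and those of Sema4d 2, 2 and 1. Plxnb1, with 30, and Sema4g, with 24, are in the same group. Medians per gene were not computed, nor a like split over all genes, so no difference by detection is read from them. GGGCGG, a GC box, was found on either strand in 27 of 37 windows (73.0%, against 42.6% of protein-coding windows). TATAAA was found in 0 (against 11.6%), and TGANTCA, the letters of an AP-1 site, in 3 (8.11%, against 6.13%), those of Sema4c, Sema4d and Sema6b. These are matches of letters and were not tested.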

How the data were processed

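RNA was read from sorted cells with a SMARTer low-input kit for full-length cDNA, per the labels' protocols. Reads were handled with STAR 2.3.0 and CASAVA 1.8.2 and the build mm10, per the submitters' processing notes. As to counting tool, annotation and use of strand, these were not given in the sources used here. Raw, unnormalized read counts for NCBI gene IDs were deposited. RefSeq names and coordinates (GRCm38.p6, the assembly of mm10) matched 25275 of 27179 IDs and all 31 members. GENCODE M21 gave exon lengths for 21610 genes, all members included.

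CPM used TMM factors from edgeR 4.0.16 under R 4.3.3, with a pseudocount of 0.5 on the log2 scale, which understates differences of genes near 0. Each library was set against the other 2 by edgeR's quasi-likelihood test with Benjamini-Hochberg adjustment, with DESeq2 1.42.0 as an alternative. The genes tested had 10 or more counts in a library. With a lone library set against a pair, a gene that did not pass is not shown to be equal between libraries. With 3 libraries in 1 group, p-values concern only these samples. Those of the library contrasts rest on a spread estimated in part over many genes. The sign-flip p is 0.25 whenever all 3 signs agree, whatever the size of the difference. Gene pairs were tested by exact sign-flip permutation (numpy 2.4.6, Python 3.11.15). Every member could be named, and of each other list the 4 genes highest in CPM, those at 0 counts and the sort genes. The members and lists were chosen with earlier results of these data known. Alternatives were other detection thresholds, scalings, pseudocounts, lengths and filters, DESeq2 and leaving out each library. Sequences came from RefSeq.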

Additional observations from a re-analysis of the deposited data

How the results depend on the processing

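The count of 16 detected members was 16 at 0.5 CPM and under both other scalings, 12 at 5 CPM, 7 at 20 CPM and 9 at 1 CPM per kilobase, and 16 to 18 with a library left out. No member was called in libraries 1 to 3 by edgeR with the alternatives run, and DESeq2 called 1 (Plxnc1) in library 2. Over all genes, edgeR called 0 with the filter, and 16, 16 and 36 without it, where DESeq2 called 126, 199 and 197. The cause was not tested. The class 3 share of 89.9% was 84.8% with CPM not divided by length and 89.2% to 91.1% with a library left out. The ratio of neuropilins to A-type plexins, 4.18, was 10.7 with the longest transcript and 9.27 with coding length, since they take Nrp1 from 9785 to 3645 and 2769 bases but Plxna1 from 9054 to 9034 and 5682, and 3.83 to 4.69 with a library left out. Nrp1 minus Nrp2 ranged from 3.96 to 5.10, Plxnb2 minus Plxnb1 from 3.17 to 6.78 and Plxnd1 minus Plxna1 from -2.80 to -1.85 over the alternatives run, each with its sign kept. Chosen after the data were seen, other lengths turned Sema3c minus Nrp1 (0.88) to -0.15 with the longest transcript, and Sema3b minus Sema3e (0.28) to -0.56 with coding length and -0.62 in CPM not divided by length. Mean CPM of the members moved by less than 1 SD in 52 of 52 values under other scalings. With a library left out it moved by over 1.5 times in 3 of 16 detected members, Sema3d and Sema6a without library 3 and Sema4b without library 1, and in 8 others, among them Sema4d (3.22 to 0.0158 without library 2), Plxna2 (5.64 to 2.84) and Plxnc1 (5.11 to 2.99), the last 2 without library 3. No paired analysis was possible because there is 1 group. Depth limits genes at 0 to an upper bound near 0.1 CPM per library.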
